A study of Caenorhabditis elegans with 3 samples.

Results

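The genes described here encode pre-mRNA splicing factors and related RNA-binding proteins of the nematode Caenorhabditis elegans, measured in adult hermaphrodites. They were chosen by name: array rows whose annotation gives 1 gene symbol that begins with prp-, rsp-, snr-, rnp-, uaf-, sap-, sfa-, rbm- or lsm- and a digit. The rule found 50 rows for 49 genes, with snr-2 on 2 rows, and all 49 had a value on all 3 arrays. They stood among 19293 genes and unnamed rows tested, of which 15112 carried a symbol. The names followed a platform annotation of 2007, and a gene that has one of these names by another annotation or on a row with several symbols was not counted.

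The study consists of 3 microarrays of 2 channels each. On each array 1 channel held mRNA of adult hermaphrodites, labelled TP12 and "w/ emb 3" and read here as adults with embryos, from preparations numbered 1 to 3, which are called replicates 1 to 3. The other one carried mRNA of a mixed wild-type reference, the same kind on every array, whose makeup the labels do not give. The labels name no allele, treatment, age or temperature, and do not tell if each preparation came from its own culture. The p-values therefore rest only on the spread between these preparations, pooled in part over all genes. That spread may be technical, and array and preparation cannot be told apart.

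Splicing removes introns from nuclear transcripts. It is carried out by the spliceosome, which is built on each intron from small nuclear ribonucleoproteins (snRNPs) named after their RNAs, U1, U2, U4, U5 and U6. A ring of Sm proteins holds the RNA in most of them, and a related Lsm ring holds U6. U1 marks the start of the intron, U2 with the U2AF and SF1 proteins marks its end and branch point, and the U4/U6 and U5 tri-snRNP then joins to form the active enzyme. SR proteins, named for their arginine and serine repeats, bind exons and recruit these parts. In C. elegans many transcripts also receive a spliced leader in trans, a reaction that uses much of the same machinery. The germline of the adult hermaphrodite makes oocytes, which store RNA and protein for the embryo.

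The values are log2 ratios of the 2 channels. No source states their direction. Adults over reference is taken as the likely one, because 13 of 14 oocyte and eggshell genes then stand higher in the adults, with a median log2 ratio of 1.52, and 25 of 27 sperm genes lower, with a median of -1.66. All 27 sperm genes are of the msp family, whose members are known to be very alike in sequence, so their probes may share transcripts and the 27 are not independent. Under the opposite direction every "higher" and "lower" given for the adults would trade places. The deposited ratios were centred near 0 on each array, so a value tells where a gene stood relative to the other genes on the array. Replicates 1, 2 and 3 had values on 19904, 19832 and 19839 of 20000 rows, and the number of arrays limits the precision. The array of replicate 1 stood apart from both others. Across all genes its correlation with them was 0.686 and 0.679, against 0.895 between replicates 2 and 3, and counts are therefore also given without it.

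Splicing factor genes, as all 49 genes of the rule are called here whatever their known role, stood mostly higher in the adults than in the reference. Of the 49 genes, 36 rose, 0 fell and 13 did not pass, at an adjusted p of 0.05 in limma's moderated test with Benjamini-Hochberg adjustment over all genes. Among all genes tested 14.8% were called higher and 13.7% lower, against 73.5% and none of the splicing factor genes. At an unadjusted p under 0.05 the counts were 41 higher and 1 lower, against 20.3% and 18.6% of all genes. The median log2 ratio of the 49 was 0.71, or 1.64-fold, and the median of all genes was 0.02. The middle of the distribution was narrow, with quartiles of 0.46 and 0.84, and 5 of the 49 reached a mean log2 ratio of 1 among the higher genes, a size that 3.88% of all genes reached. Without replicate 1 the count was 41 higher and 1 lower (22.2% and 20.1% of all genes). Without replicate 2 it was 24 higher and 0 lower (9.93% and 9.34% of all genes), and without replicate 3 also 24 and 0 (10.1% and 10.3%). With arrays weighted by their agreement it was 44 higher and 1 lower (25.3% and 22.9%), with each of 32 blocks of rows centred 36 and 0 (16.2% and 17.2%), and with each array centred on its median 35 and 0 (14.0% and 14.1%). Without moderation of the variance none of the 49 passed, and 0 of all 19293 genes did. At an unadjusted p under 0.05 that fit had 25 higher and 1 lower, against 13.6% and 11.8% of all genes. Fewer of all genes passed without replicate 2 or replicate 3 than with all arrays. A call lost there need not mean that a gene's own values were uneven. In whole animals a larger share of a tissue and more RNA per cell cannot be told apart.

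**Figure D1:**
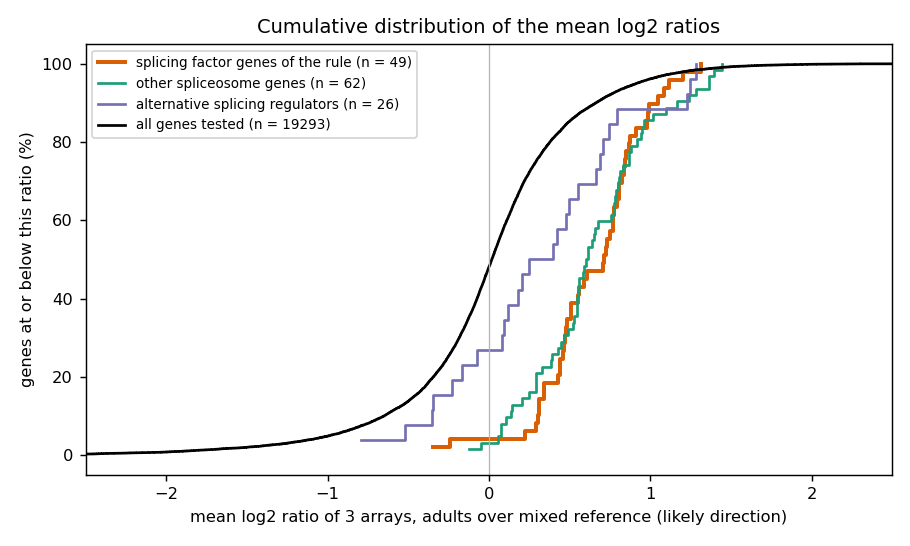
Cumulative share of genes (y axis, percent) at or below each mean log2 ratio of the 3 arrays (x axis) for the 49 splicing factor genes, 62 other spliceosome genes, 26 alternative splicing regulators and all 19293 genes tested. The other spliceosome list also holds genes of linked steps such as mRNA export. At their medians, 0.71 and 0.61 against 0.02, the splicing factor and other spliceosome curves lie to the right of the curve for all genes. The median of the regulators, 0.32, lies between these, but their curve does not stay between the others along its whole length.

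The shift was seen on each array. On the arrays of replicates 1, 2 and 3 the 49 genes had medians of 0.65, 0.61 and 0.57, while the medians of all genes on these arrays were 0.01, 0.03 and 0.01. Of the 49 genes, 45 were positive on all 3 arrays, against 30.1% of all genes, and 2 were negative on all 3, against 27.2%. The mean ratio was above 0 for 47 of them (51.9% of all genes) and above the upper quartile of all genes, a log2 ratio of 0.29, for 45. The 2 genes below 0 were lsm-7 and rnp-9, and neither passed. The smallest absolute log2 ratio that passed anywhere on the arrays was 0.42, and 6 of the 13 genes that did not pass had ratios between 0.29 and 0.34.

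**Figure D2:**
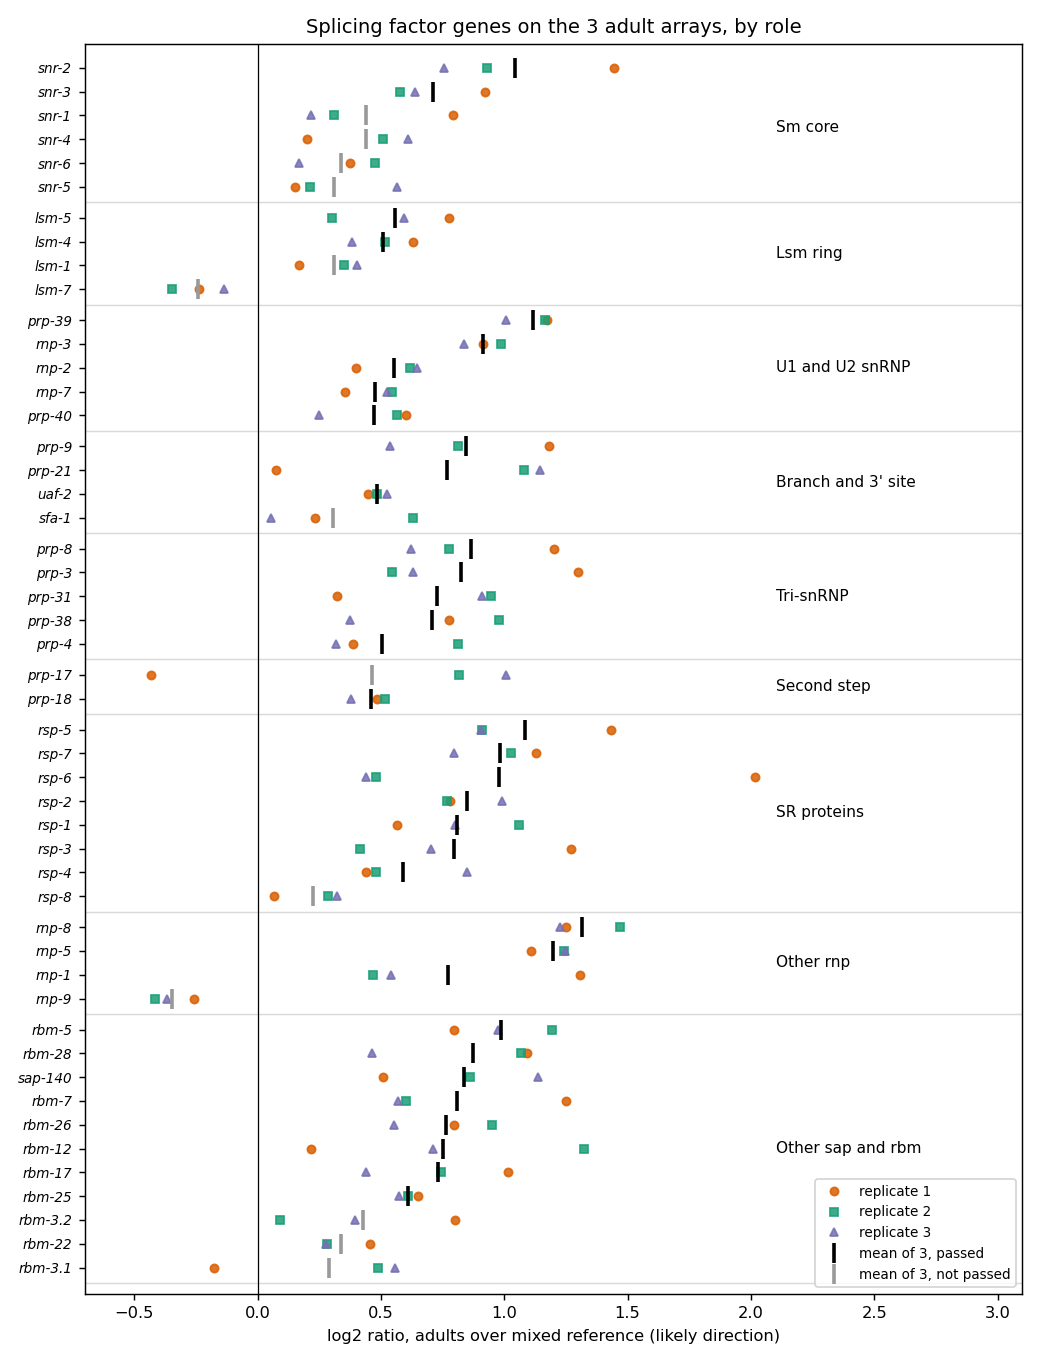
Log2 ratio of adults over mixed reference (x axis) on each of the 3 arrays for all 49 splicing factor genes (rows), grouped by role, with the mean as a vertical tick that is black where the gene passed and grey where it did not. Nearly all points lie to the right of 0, from -0.43 for prp-17 in replicate 1 to 2.02 for rsp-6 in replicate 1, and the points of lsm-7 and rnp-9 all lie to the left.

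The core Sm ring was represented by 6 genes, all positive on all 3 arrays, of which 2 rose and 4 did not pass. The share that rose was 33.3%, against 14.8% of all genes. The gene for SmB, snr-2, had log2 ratios of 1.45, 0.93 and 0.76 in replicates 1, 2 and 3, a mean of 1.04 ± 0.36 (SD, n = 3, adjusted p = 0.00342), or 2.06-fold. The gene for SmD1, snr-3, had 0.92, 0.58 and 0.64, a mean of 0.71 ± 0.18 (adjusted p = 0.0086). Replicate 1 was the highest of the 3 for both. The other 4 had means between 0.31 and 0.44. The gene for SmD3, snr-1, had 0.79, 0.31 and 0.22 and a mean of 0.44 ± 0.31 (adjusted p = 0.0812). The gene for SmD2, snr-4, had 0.20, 0.51 and 0.61 and a mean of 0.44 ± 0.21 (adjusted p = 0.0605). Their means were nearly the same, but replicate 1 was the highest value for snr-1 and the lowest for snr-4. The gene for SmF, snr-5, had 0.15, 0.21 and 0.57 (mean 0.31 ± 0.22, adjusted p = 0.17), and the gene for SmE, snr-6, had 0.38, 0.48 and 0.17 (mean 0.34 ± 0.16, adjusted p = 0.117). Without replicate 1, snr-4 passed at 0.56 (adjusted p = 0.00662) and snr-5 at 0.39 (adjusted p = 0.0479). These proteins sit in 1 ring in equal numbers. Their transcripts had ratios from 0.31 to 1.04, and differences between the genes were not tested.

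The Lsm genes had the lowest median of the roles represented by 4 or more genes, at 0.41. Of these 4 genes 2 rose, or 50%, against 14.8% of all genes. Lsm proteins form a nuclear ring on U6 and a cytoplasmic ring that takes part in mRNA decay and shares most of its subunits with it. The shared-subunit gene lsm-5 had 0.77, 0.30 and 0.59 in replicates 1, 2 and 3, a mean of 0.56 ± 0.24 (SD, n = 3, adjusted p = 0.0276). Another, lsm-4, had 0.63, 0.52 and 0.38, a mean of 0.51 ± 0.12 (adjusted p = 0.0284). The values of both were positive throughout. The gene of the cytoplasmic ring's own subunit, lsm-1, had 0.17, 0.35 and 0.40, a mean of 0.31 ± 0.12, and did not pass (adjusted p = 0.144). The shared-subunit gene lsm-7 had -0.24, -0.35 and -0.13, a mean of -0.24 ± 0.11, and did not pass (adjusted p = 0.245), so its 3 values did not overlap with those of lsm-1, lsm-4 or lsm-5. Without replicate 1, lsm-1 passed (adjusted p = 0.0338). Without replicate 2 lsm-4 did not pass (adjusted p = 0.144), and without replicate 3 neither lsm-4 nor lsm-5 passed (adjusted p = 0.113 and 0.145).

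All 5 of the splicing factor genes chosen by name that belong to U1 or encode the U1 and U2 RNA-binding proteins rose. Other U1-associated genes are not counted here, and 14.8% of all genes rose. The gene of a protein known in yeast as part of the U1 snRNP, prp-39, had 1.18, 1.17 and 1.01 in replicates 1, 2 and 3, a mean of 1.12 ± 0.09 (SD, n = 3, adjusted p = 0.0011), and stood above 97.3% of all genes. Its values lay close together, with an SD below the median SD of 0.24 over all genes. The gene rnp-3 had 0.92, 0.99 and 0.84, a mean of 0.91 ± 0.07 (adjusted p = 0.00239). Its neighbour in the genome and relative, rnp-2, had 0.40, 0.62 and 0.65, a mean of 0.55 ± 0.14 (adjusted p = 0.021). Each value of rnp-3 was above every value of rnp-2. Both encode proteins of the family that binds the U1 and U2 RNAs, so a probe of one may also take up transcripts of the other. The gene for the U1 70K protein, rnp-7, had 0.35, 0.54 and 0.53 (mean 0.47 ± 0.11, adjusted p = 0.036). The gene prp-40, named after a yeast protein that links U1 to the branch point, had 0.60, 0.57 and 0.25 (mean 0.47 ± 0.19, adjusted p = 0.0449). Without replicate 1 all 5 passed, against 22.2% of all genes called higher. In that fit the adjusted p was 0.00349 for rnp-2, 0.0076 for rnp-7 and 0.0371 for prp-40. The calls of these 3 genes were lost when replicate 2 or replicate 3 was left out. Without replicate 2 the adjusted p was 0.129 for rnp-2, 0.224 for rnp-7 and 0.248 for prp-40, and without replicate 3 it was 0.177, 0.25 and 0.105 for the same genes.

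Of 4 genes whose products recognise the branch point and the end of the intron, 3 rose (75%, against 14.8% of all genes). The gene for the small subunit of U2AF, uaf-2, which contacts the last bases of the intron, had 0.45, 0.48 and 0.52 in replicates 1, 2 and 3, a mean of 0.49 ± 0.04 (SD, n = 3, adjusted p = 0.0303). This was the smallest SD of the 49 genes. The gene for the branch point binding protein SF1, sfa-1, had 0.23, 0.63 and 0.05 and a mean of 0.31 ± 0.30, and did not pass (adjusted p = 0.202). Subunits of the SF3a complex, which anchors U2 at the branch point, are encoded by prp-9 and prp-21. The gene prp-9 had 1.18, 0.81 and 0.54, a mean of 0.84 ± 0.32 (adjusted p = 0.00711), with replicate 1 the highest. The gene prp-21 had 0.07, 1.08 and 1.14, a mean of 0.77 ± 0.60 (adjusted p = 0.0346), with replicate 1 the lowest. Replicate 1 was thus high for one of these genes and low for the other. Without replicate 1 the values were 0.68 for prp-9 and 1.11 for prp-21. Without replicate 2 neither uaf-2 nor prp-21 passed (adjusted p = 0.164 and 0.0756), nor did they without replicate 3 (adjusted p = 0.227 and 0.113). The mean of uaf-2 was still 0.49 without replicate 2 and 0.47 without replicate 3.

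Among the splicing factor genes chosen by name, all 5 of the tri-snRNP and its activation rose, with a median of 0.73. Genes of these roles with other names are not counted here, and 14.8% of all genes rose. The gene for PRP8, the large U5 protein at the centre of the spliceosome, had 1.20, 0.77 and 0.62 in replicates 1, 2 and 3, a mean of 0.87 ± 0.30 (SD, n = 3, adjusted p = 0.00587). The U4/U6 protein gene prp-3 had 1.30, 0.55 and 0.63, a mean of 0.83 ± 0.41 (adjusted p = 0.0115). Replicate 1 was the highest value for both. The U4/U6 protein gene prp-31 had 0.32, 0.95 and 0.91, a mean of 0.73 ± 0.35 (adjusted p = 0.0149), with replicate 1 the lowest. The U4/U6 protein gene prp-4 had 0.39, 0.81 and 0.32 (mean 0.51 ± 0.27, adjusted p = 0.0444). The gene prp-38, whose yeast counterpart is needed to activate the assembled spliceosome, had 0.77, 0.98 and 0.37 (mean 0.71 ± 0.31, adjusted p = 0.0138). Every value of these 5 genes was positive. Without replicate 2, prp-4, prp-31 and prp-38 did not pass (adjusted p = 0.365, 0.0646 and 0.088), and without replicate 3, prp-4 and prp-31 did not (adjusted p = 0.0931 and 0.0714).

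The genes of 2 factors named after yeast proteins of the second catalytic step had nearly equal means and very unequal spread. The gene prp-18 had 0.48, 0.52 and 0.38 in replicates 1, 2 and 3, a mean of 0.46 ± 0.07 (SD, n = 3), and rose (adjusted p = 0.0385). The gene prp-17 had -0.43, 0.82 and 1.01, a mean of 0.46 ± 0.78, and did not pass (adjusted p = 0.239). Together with rbm-3.1 it was negative in replicate 1 and positive in both other replicates, a pattern that no other gene of the 49 had. Without replicate 1 prp-17 stood at 0.91 and passed (adjusted p = 0.000768). The call of prp-18 was lost without replicate 2 (adjusted p = 0.236) and without replicate 3 (adjusted p = 0.185).

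SR protein genes had a median log2 ratio of 0.83, and 7 of 8 rose (87.5%, against 14.8% of all genes). The gene rsp-5 had 1.43, 0.91 and 0.91 in replicates 1, 2 and 3, a mean of 1.08 ± 0.30 (SD, n = 3, adjusted p = 0.00235), or 2.12-fold. The gene rsp-7, of an SR-related protein, had 1.13, 1.03 and 0.80, a mean of 0.98 ± 0.17 (adjusted p = 0.00215). Both were positive on every array. The genes rsp-1 and rsp-2, which are neighbours in the genome, had means of 0.81 ± 0.25 and 0.85 ± 0.13 (adjusted p = 0.0063 and 0.00355). Their values were 0.57, 1.06 and 0.80 for rsp-1 and 0.78, 0.77 and 0.99 for rsp-2. SR genes share sequence in their RNA-binding domains, so the probes of close relatives may share transcripts.

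The SR gene rsp-3 encodes the counterpart of SF2/ASF, a founding member of the family that acts in both constitutive and alternative splicing. It had 1.27, 0.41 and 0.70, a mean of 0.80 ± 0.44 (SD, n = 3, adjusted p = 0.0148). The gene for the SC35 counterpart, rsp-4, had 0.44, 0.48 and 0.85, a mean of 0.59 ± 0.23 (adjusted p = 0.0211), and was not called without replicate 3 (0.46, adjusted p = 0.234). The gene for the SRp20 counterpart, rsp-6, had 2.02, 0.48 and 0.44, a mean of 0.98 ± 0.90 (adjusted p = 0.0406), the largest SD of the 49. Its mean was set by 1 array: replicate 1 was far above the others, and without it the value was 0.46 (adjusted p = 0.0148). The gene rsp-8, related to the Tra2 splicing regulators, had 0.06, 0.28 and 0.32, a mean of 0.22 ± 0.14, and did not pass (adjusted p = 0.286). On each array its value was below those of the other 7 SR genes.

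The 2 genes with the largest ratios of the 49 were rnp-8 and rnp-5. The product of rnp-8 is an RNA-binding partner of the cytoplasmic poly(A) polymerase GLD-2 and acts in oogenesis, so by known role it is no spliceosome part. It had 1.25, 1.47 and 1.23 in replicates 1, 2 and 3, a mean of 1.31 ± 0.13 (SD, n = 3, adjusted p = 0.000608), or 2.49-fold, above 98.5% of all genes. The gene rnp-5, of the counterpart of RNPS1, which binds spliced mRNA at exon junctions, had 1.11, 1.24 and 1.25, a mean of 1.20 ± 0.08 (adjusted p = 0.000801). Both had 3 values above 1. The RNA-binding protein gene rnp-1 had 1.31, 0.47 and 0.54, a mean of 0.77 ± 0.46 (adjusted p = 0.019), and replicate 1 was well above the others: without it the value was 0.50 (adjusted p = 0.01). At the other end, the RNA-binding protein gene rnp-9 had -0.26, -0.42 and -0.37, a mean of -0.35 ± 0.08, the lowest of the 49, and did not pass (adjusted p = 0.0984). Its 3 values were all negative and close together. Without replicate 1 it fell by 0.39 on the log2 scale and passed (adjusted p = 0.0292).

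Of 10 rbm genes, a family named for RNA-binding motifs, 7 rose (70%, against 14.8% of all genes), and so did sap-140. The gene rbm-5 had 0.79, 1.19 and 0.98 in replicates 1, 2 and 3, a mean of 0.99 ± 0.20 (SD, n = 3, adjusted p = 0.00232). The gene rbm-28 had 1.09, 1.07 and 0.46 (mean 0.87 ± 0.36, adjusted p = 0.00711), and rbm-7 had 1.25, 0.60 and 0.57 (mean 0.81 ± 0.39, adjusted p = 0.0112). Values were positive on every array for these 3 genes. The gene rbm-26 had 0.79, 0.95 and 0.55 (mean 0.77 ± 0.20, adjusted p = 0.00666). The gene rbm-17, whose human counterpart takes part in recognising the intron end, had 1.01, 0.74 and 0.44 (mean 0.73 ± 0.29, adjusted p = 0.0111). The gene sap-140 had 0.51, 0.86 and 1.13 (mean 0.84 ± 0.31, adjusted p = 0.00714). Of the others that rose, rbm-25, whose human counterpart associates with U1, had an even set of values, and rbm-12 an uneven one. The gene rbm-25 had 0.65, 0.61 and 0.57 (mean 0.61 ± 0.04, adjusted p = 0.0122), and rbm-12 had 0.22, 1.32 and 0.71 (mean 0.75 ± 0.55, adjusted p = 0.0311). Without replicate 2, rbm-12 stood at 0.46 and was not called (adjusted p = 0.196), and neither was rbm-25 (adjusted p = 0.0643), which was also not called without replicate 3 (adjusted p = 0.0739).

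The rbm genes that did not pass were rbm-3.1, rbm-3.2 and rbm-22. The gene rbm-22, whose human counterpart sits at the catalytic centre of the spliceosome, had 0.46, 0.28 and 0.28 (mean 0.34 ± 0.10, SD, n = 3, adjusted p = 0.109). The adjacent and related genes rbm-3.1 and rbm-3.2 had -0.18, 0.49 and 0.56 and 0.80, 0.09 and 0.40 in replicates 1, 2 and 3. In replicate 1 rbm-3.1 was below 0 while rbm-3.2 was at its highest, and in replicates 2 and 3 rbm-3.1 was above rbm-3.2. Their means were 0.29 ± 0.40 and 0.43 ± 0.36 (adjusted p = 0.279 and 0.0995). Without replicate 1, rbm-3.1 passed at 0.52 (adjusted p = 0.0087).

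Replicate 1 had a median near those of the other arrays but differed from them for single genes. The 49 values correlated across genes at 0.366 between replicates 1 and 2 and at 0.298 between replicates 1 and 3, against 0.752 between replicates 2 and 3 (Pearson). Spearman's rho was 0.288, 0.265 and 0.643. These are correlations across genes that share arrays and a reference, and genes are not independent replicates. In replicate 1, 11 of the 49 genes lay more than 0.5 above their mean in replicates 2 and 3, against 15.5% of all genes, and 5 lay more than 0.5 below it, against 14.8%. The 5 below were prp-17, prp-21, rbm-12, rbm-3.1 and prp-31. The share above was 22.4% of the 49 and the share below 10.2%. Deviations in replicate 1 thus went both ways, more often up than down among the splicing factor genes and about evenly among all genes. This difference was not tested. The labels give each array its own date-like ending, so array, date and preparation cannot be told apart.

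**Figure D3:**
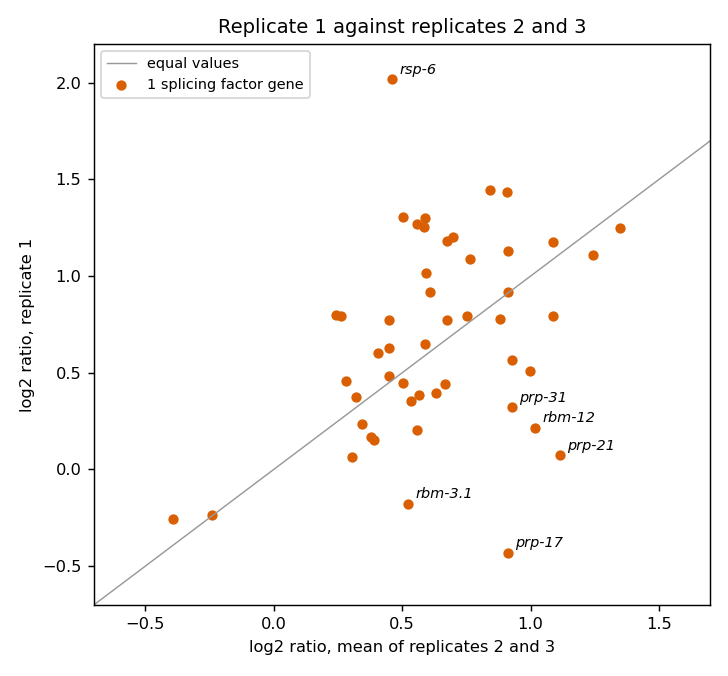
Log2 ratio in replicate 1 (y axis) against the mean log2 ratio of replicates 2 and 3 (x axis) for the 49 splicing factor genes, with the line of equal values. The gene rsp-6 lies far above the line at 2.02 against 0.46, and prp-17 far below it at -0.43 against 0.91.

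A further list of 85 names, of which 62 were measured, held other spliceosome genes and genes of linked steps such as mRNA export. These genes too stood mostly higher in the adults. Of the 62, 37 rose, 0 fell and 25 did not pass, with a median log2 ratio of 0.61 and 60 means above 0. At 59.7% the share called higher is read against 14.8% of all genes. The gene with the smallest p was mog-3, one of the mog genes known for the switch of the germline from sperm to oocytes, with 1.57, 1.48 and 1.27 in replicates 1, 2 and 3 and a mean of 1.44 ± 0.15 (SD, n = 3, adjusted p = 0.000458). The SR-related protein gene rsr-1 had 1.22, 1.39 and 1.48, a mean of 1.36 ± 0.14 (adjusted p = 0.000531). The mRNA export adaptor gene aly-2 had 1.33, 1.20 and 1.20, a mean of 1.24 ± 0.08 (adjusted p = 0.000692). All 3 were above 1 on every array. The gene snu-23, named after a yeast tri-snRNP protein, had 1.04, 1.38 and 1.41 (mean 1.28 ± 0.20, adjusted p = 0.000841). The gene bud-13, whose yeast counterpart belongs to a complex that retains unspliced RNA in the nucleus, had 1.60, 1.46 and 1.04 (mean 1.36 ± 0.29, adjusted p = 0.000884). Without replicate 1 the list had 49 higher (22.2% of all genes), without replicate 2 it had 27 (9.93%) and without replicate 3 it had 28 (10.1%), with 0 lower each time.

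Alternative splicing regulators were represented by 26 measured genes of a list of 34, of which 11 rose, 2 fell and 13 did not pass, with a median of 0.32. The share called higher was 42.3%, against 14.8% of all genes, and the share called lower 7.69%, against 13.7%. Those that rose included ccar-1, with 1.51, 1.35 and 1.00 in replicates 1, 2 and 3 (mean 1.29 ± 0.26, SD, n = 3, adjusted p = 0.000988), and the hnRNP U counterpart gene hrpu-1, with 1.60, 1.22 and 0.87 (mean 1.23 ± 0.37, adjusted p = 0.00184). The hnRNP A1 counterpart gene hrpa-1 had 2.02, 0.70 and 1.02 (mean 1.25 ± 0.69, adjusted p = 0.00706), with replicate 1 the highest. The TIA-1-related gene tiar-1 had a mean of 0.79 ± 0.24 and grld-1 of 0.69 ± 0.17 (adjusted p = 0.00646 and 0.00951). The 2 genes that fell were asd-2 and exc-7. The STAR-family gene asd-2, known for muscle-specific splicing, had -1.23, -0.71 and -0.44 (mean -0.79 ± 0.40, adjusted p = 0.0128). The ELAV-family gene exc-7, known from neurons and the excretory canal, had -0.37, -0.64 and -0.56 (mean -0.52 ± 0.14, adjusted p = 0.0265). Both were negative on all 3 arrays. This list held 12 higher and 3 lower genes without replicate 1 (22.2% and 20.1% of all genes), 7 and 1 without replicate 2 (9.93% and 9.34%), and 6 and 1 without replicate 3 (10.1% and 10.3%). The gene exc-7 was not called in the last 2 cases (adjusted p = 0.19 and 0.182). The value of hrpa-1 without replicate 1 was 0.86.

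Germline and oocyte markers stood mostly higher in the adults, as did the splicing factor genes. A link between them was not tested. The marker counts are read against 14.8% higher and 13.7% lower among all genes. All 12 germline genes rose, with medians of 1.51, 1.66 and 1.45 in replicates 1, 2 and 3, among them the RNA helicase gene cgh-1 at 1.94 ± 0.22 and glh-4 at 1.82 ± 0.17 (SD, n = 3). Of 14 oocyte and eggshell genes 13 rose, with medians of 1.79, 1.51 and 1.42, among them puf-7 at 2.03 ± 0.14 and the yolk receptor gene rme-2 at 1.92 ± 0.09. These medians were above the splicing factor medians of 0.65, 0.61 and 0.57 on the same arrays. Among sperm genes 25 of 27 fell, with medians of -1.35, -2.24 and -1.40, and msp-33 and msp-36 stood at -2.42 ± 0.38 and -2.11 ± 0.25. The oocyte and sperm genes had served to choose the direction of the ratios, so their directions are not a separate result.

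Markers of somatic tissues and embryos differed from list to list. The 9 neuronal genes had a median log2 ratio of -0.87, with 3 means above 0 and 6 below. Of these 9 genes 0 rose and 5 fell (55.6%). The 2 with the smallest p were snt-1 at -1.56 ± 0.18 and unc-13 at -1.59 ± 0.21 (SD, n = 3). The 8 muscle genes had a median log2 ratio of -0.02, with 4 means above 0 and 4 below. Of these 8 genes 0 rose and 3 fell (37.5%), and 5 did not pass. The 2 with the smallest p were tnc-2 at -1.35 ± 0.50 and tni-3 at -1.03 ± 0.23. These counts too stand beside 14.8% higher and 13.7% lower of all genes. Of 8 intestinal genes 2 rose and 2 fell (25% each, against the same shares of all genes), with vit-2 at 0.99 ± 0.41 and ifb-2 at -1.02 ± 0.26. Of 9 early zygotic embryonic genes 1 rose and 1 fell, hch-1 at 0.57 ± 0.06 and med-1 at -0.62 ± 0.30, each 11.1% of the list, near the shares of all genes. Neither passed without replicate 2 (adjusted p = 0.113 and 0.174) or without replicate 3 (adjusted p = 0.0931 and 0.088). Leaving out replicate 1 gave 3 higher and 3 lower intestinal genes (22.2% and 20.1% of all genes). Leaving out replicate 2 gave 1 of each (9.93% and 9.34%), and so did leaving out replicate 3 (10.1% and 10.3%). The part of tissue makeup in the splicing factor ratios was not tested.

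**Figure D4:**
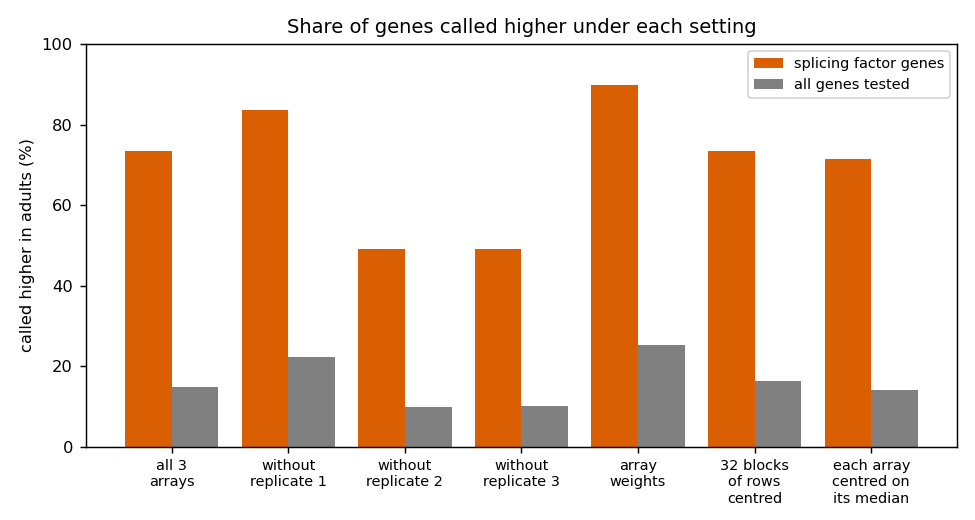
Share of genes called higher in adults (y axis, percent) among the 49 splicing factor genes and among all genes tested, for the fit on all 3 arrays and 6 alternatives (x axis). The splicing factor share was 73.5% with all arrays, against 14.8% of all genes, and it stood above the share of all genes in each of the 7 settings shown.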

How the data were processed

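Transcripts of 3 preparations of adult hermaphrodites were each compared with a mixed wild-type reference on an array of 2 channels. Per the labels, channel 1 held the reference and channel 2 the adults. The authors deposited 1 log2 ratio per row and array, centred near 0 (array medians over all rows 0.01, 0.04 and 0.01). Base 2 was inferred from the values. Neither the scanner nor the background correction, normalisation, dyes or direction is given in the sources used here.

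Of 20000 rows, 15655 had 1 symbol, 198 several and 4147 none. Symbols were updated by gene identifier (15569 rows) or accession (7) through RefSeq assembly WBcel235, used for names and gene order, and 79 were kept. Rows of a symbol were averaged. Genes with values on all 3 arrays were tested against 0 in limma 3.58.1 (R 4.3.3, lmFit and eBayes, two-sided, Benjamini-Hochberg over 19293 genes, threshold 0.05), and 220 were set aside. The variance prior had an SD of 0.27 with 5.86 degrees of freedom.

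The members, lists and tests were chosen with earlier results of these data known. All members could be named. Of the 2 further splicing lists the 5 genes with the smallest p in each direction were named, and of marker lists 2 each. Roles are general knowledge. No sequences are shown.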

Additional observations from a re-analysis of the deposited data

How the results depend on the processing

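Counts of splicing factor genes called higher lay between 35 and 44 under median centring (35), unaveraged rows, trend and robust options, values on at least 2 arrays, 32 blocks of rows centred, current symbols and array weights (44). Leaving out 1 replicate gave 24 to 41 higher and 0 to 1 lower, and array weights gave 1 lower, rnp-9. Of the 36 genes, 22 were also higher without each replicate in turn. The median of the 49 was 0.62 with array weights, 0.63 with blocks centred and 0.59 to 0.63 without a replicate. Without variance moderation 0 splicing factor genes passed, with 25 higher and 1 lower at an unadjusted p under 0.05 in limma's ordinary fit, where 0 of all genes passed and 13.6% were higher and 11.8% lower unadjusted. On that setting the other spliceosome list had 0 higher (31 unadjusted) and the regulators 0 higher (11 unadjusted) and 0 lower. Of regulators, 6 to 12 were higher and 1 to 3 lower without a replicate, and 4 were lower with blocks centred. No paired analysis was possible because all 3 arrays form 1 group. Without replicate 2 or 3, 12 single splicing factor genes lost their call each time. Of all genes 9.93% and 10.1% were called higher in these fits, against 14.8% with all arrays. With blocks centred prp-18, prp-40 and rsp-6 were not called (adjusted p = 0.0511, 0.0873 and 0.0551), nor were prp-40 with median centring (0.0513) and rsp-6 with values on at least 2 arrays (0.0508). No named gene changed sign under the alternatives run. Without spot intensities, dim and saturated spots could not be told from others.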

Other observations

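Among the measured spliceosome genes, those of the spliced leader and of the germline sex switch were looked at after their values were seen. The genes sna-1 and sna-2, of proteins of the spliced leader snRNP used in trans-splicing, stood at 0.81 ± 0.13 and 0.94 ± 0.42 (SD, n = 3, adjusted p = 0.00422 and 0.00681 in limma), and sut-1, of a related snRNP, at 0.59 ± 0.14 (adjusted p = 0.017). All 3 were higher in the adults, though sut-1 was not called without replicate 2 (0.51, adjusted p = 0.135) or replicate 3 (0.59, adjusted p = 0.103). The helicase genes mog-1, mog-4 and mog-5, which act in splicing and in the switch from sperm to oocytes, stood at 0.64 ± 0.35, 0.88 ± 0.74 and 0.68 ± 0.25 (adjusted p = 0.0249, 0.0344 and 0.0134). The gene mog-7 stood at 0.60 ± 0.48 and did not pass (adjusted p = 0.0509), but passed without replicate 1 (0.88, adjusted p = 0.000785). Without replicate 2, mog-1 and mog-5 were not called (adjusted p = 0.0505 and 0.0904), and without replicate 3, mog-4 and mog-5 were not (adjusted p = 0.0728 and 0.0653).

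Some splicing factor genes are neighbours in the RefSeq annotation, with no protein-coding gene between them. The pairs were snr-3 with rsp-5 at 0.71 and 1.08, rsp-2 with rsp-1 at 0.85 and 0.81, rnp-2 with rnp-3 at 0.55 and 0.91, and rbm-3.1 with rbm-3.2 at 0.29 and 0.43 (mean log2 ratios). The genes sfa-1 and uaf-2 had 2 protein-coding genes between them and stood at 0.31 and 0.49. The 2 rows of snr-2 stood at 1.06 ± 0.13 and 1.03 ± 0.60 (SD over 3 arrays), with 1.18 and 1.71 in replicate 1.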
